A study of Mus musculus with 60 samples.

Results

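T cell genes were followed in the whole embryo, the fetal hindquarters and the pectoralis muscle of wild-type and MSTN-null mice. The set was 9 genes that mark T cells and their receptor: Cd3e, Cd3d, Cd3g, Cd4, Cd8a, Cd8b1, Lck, Cd28 and Cd5. A gene was represented by every probe set of the MOE430A and MOE430B chips that carries its symbol in the platform annotation, and 8 of the 9 genes were found, on 14 probe sets, among 18193 genes and 45037 probe sets in all. Lck was left out of the analysis, as 0 probe sets are named for it in that annotation. Cd28 was set apart as a gene of chromosome 1, the chromosome of Mstn, and was chosen by its measured genotype difference at d35 in an earlier analysis of these arrays. The values of the set at d35 are therefore a description from which nothing is read as a test. Tests of the set are read in the embryonic and fetal samples alone. How many T cells those samples held was not measured, so a lack of difference there cannot be read as equal T cells.

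Both genotypes were C57BL/6J mice, 1 carrying the Mstn-null allele and the other wild-type, with no other allele or treatment in the labels. Each time point had 5 pools per genotype, and each pool held RNA of 3 animals, so that 15 animals stand behind a group. Tissues were the whole embryo at 13.5 d.p.c. (days post coitum), the hindquarters at 17.5 d.p.c. and the pectoralis muscle at 35 days of age (d35). Levels are log2 intensities after robust multi-array analysis (RMA), and a difference is wild-type minus MSTN-null on the log2 scale. Probe sets were tested with limma at each time point and called at a Storey q (the false discovery rate among calls) under 0.05. The absence of Mstn message was not checked, since no probe set is named for Mstn.

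T cells recognise antigen through a receptor that carries no signalling domain of its own and passes its signal through the CD3 chains. CD4 and CD8 are coreceptors that bind MHC molecules and bring the kinase LCK to the receptor. CD28 gives the second, co-stimulatory signal when it binds CD80 or CD86 on an antigen-presenting cell, and CD5 dampens receptor signalling. Skeletal muscle at rest holds few T cells, so that their messages are a small part of its RNA.

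The median standard deviation between pools of a group was 0.0770 in whole embryos, 0.131 in hindquarters and 0.0993 in pectoralis muscle. The array of wild-type pool 1 on chip B at 17.5 d.p.c. stood apart, with a mean correlation of 0.948 with the other arrays of its group against 0.980 or more for every other array. Skeletal muscle markers averaged 12.1 to 12.5 over the d35 pools, where liver markers averaged 5.17 to 5.34. In the 17.5 d.p.c. hindquarters, muscle markers averaged 10.1 to 10.6 and liver markers 9.09 to 12.4, so that these pools held message of liver genes.

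At d35, Cd28 was lower in wild-type than in MSTN-null muscle on both of its probe sets, by 1.04 and 0.94 on the log2 scale. On probe set 1437025_at the wild-type pools 1 to 5 measured 7.22, 7.28, 7.20, 7.12 and 6.98. The MSTN-null pools measured 7.90, 8.36, 8.05, 8.44 and 8.25. The lowest MSTN-null pool lay above the highest wild-type pool, and the means were 7.16 ± 0.12 and 8.20 ± 0.22 (SD, n = 5), a level 2.06-fold higher in MSTN-null muscle. On probe set 1417597_at the wild-type pools measured 5.36, 5.67, 5.52, 5.47 and 5.30. The MSTN-null pools measured 5.80, 6.35, 6.20, 7.56 and 6.13. These groups did not overlap either, although MSTN-null pool 4 stood well above the other pools of its genotype. The means were 5.47 ± 0.14 and 6.41 ± 0.68 (SD, n = 5), a level 1.92-fold higher in MSTN-null muscle, and without MSTN-null pool 4 the difference was -0.65. The differences ranked 7 and 10 among the 45037 probe sets, counted from the lowest. Of all probe sets, 2.77% had every wild-type pool below every MSTN-null pool, 2.08% passed the limma test as lower in wild-type and 0.0222% were lower by 1.9-fold or more. Because these values chose the gene, nothing was read from the ranks. In pooled whole tissue, a change in the number of cells that hold a message and a change in message per cell cannot be told apart.

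**Figure D1:**
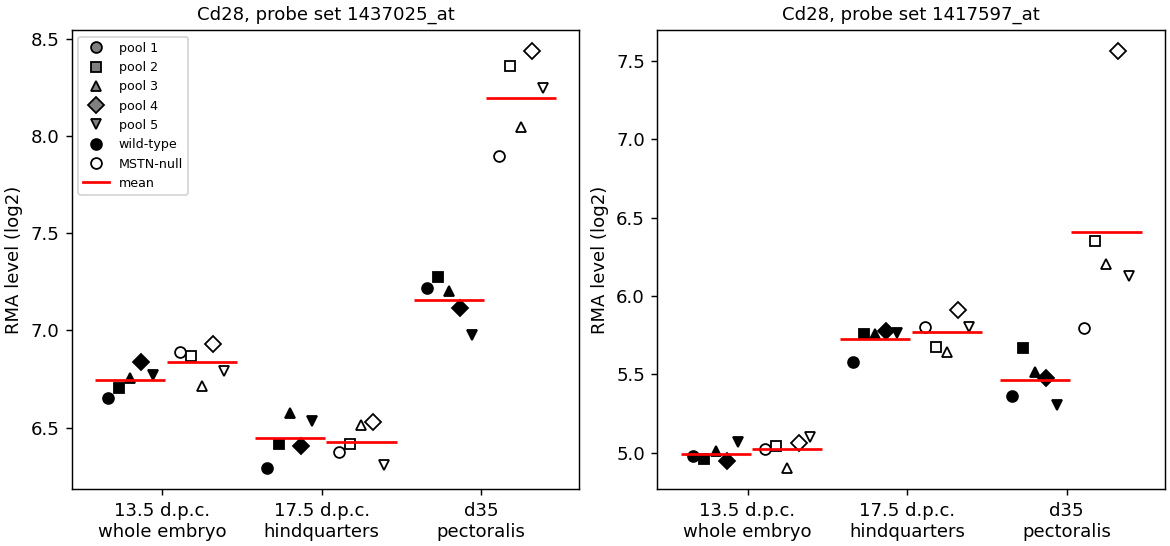
Levels of the 2 Cd28 probe sets (vertical axis, RMA level on a log2 scale) in each pool of wild-type (filled) and MSTN-null (open) mice at 3 time points, with the symbol shape giving the pool number and the red line the mean. The genotypes overlap before birth and are apart at d35, where wild-type pools sit from 6.98 to 7.28 and MSTN-null pools from 7.90 to 8.44 on probe set 1437025_at. Time points were normalized separately and are of different tissues.

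Before birth, no difference in Cd28 was detected. At 13.5 d.p.c. probe set 1437025_at ran from 6.65 to 6.84 in wild-type and from 6.71 to 6.93 in MSTN-null embryos, with a difference of -0.09 ± 0.05 (SE, limma q = 0.380). Probe set 1417597_at ran from 4.95 to 5.07 and from 4.90 to 5.10, a difference of -0.03 ± 0.04 (SE, limma q = 0.619). The genotypes overlapped on both. At 17.5 d.p.c. the wild-type pools ran from 6.29 to 6.58 and the MSTN-null pools from 6.31 to 6.53 on 1437025_at, a difference of 0.02 ± 0.07 (SE). On 1417597_at they ran from 5.58 to 5.77 and from 5.64 to 5.91, a difference of -0.04 ± 0.07 (SE). The limma q of every T cell probe set was 0.99995 at this age. Both probe sets lay below the lower quartile of their chip at these time points, a range in which an array separates small changes poorly. At d35 neither did by its mean over both genotypes. On 1417597_at, however, every wild-type pool still lay below that quartile (5.70), so its fold value rests on low wild-type signals.

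The other T cell genes did not share the d35 difference of Cd28. Cd28 was chosen for that difference, so nothing was read from the contrast. Of the 12 probe sets of the other genes, 9 were higher in wild-type muscle and 3 lower. The median difference was 0.10, with a range from -0.21 to 0.47, beside a median of -0.01 over all probe sets. In 0 of the 12 were the genotypes apart, where 5.25% of all probe sets were apart in either direction. A count of 0 among 12 is near that share. For these genes the spread within wild-type muscle was wide, and 1 pool set it. Wild-type pool 2 was the highest of all 10 pools in 10 of the 12 probe sets. On the Cd28 probe sets that pool was the highest of the wild-type pools, yet below every MSTN-null pool.

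**Figure D2:**
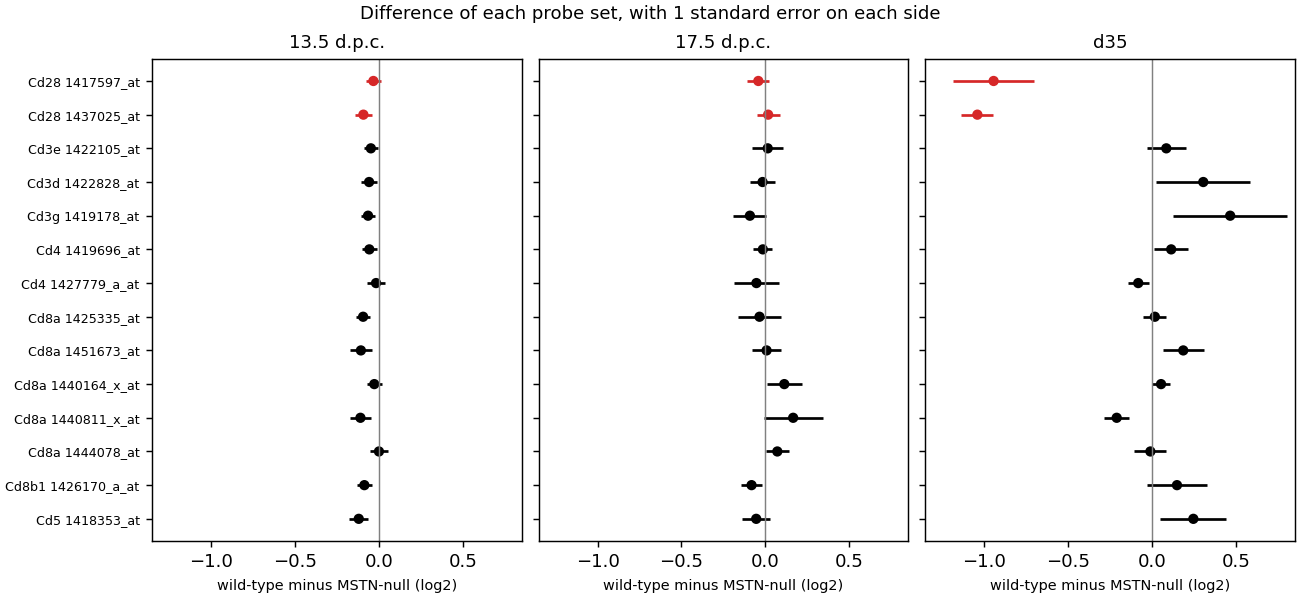
Wild-type minus MSTN-null difference (horizontal axis, log2) of each of the 14 probe sets at the 3 time points, with bars of 1 standard error on each side and Cd28 in red. At d35 the Cd28 probe sets lie at -1.04 and -0.94 and the others between -0.21 and 0.47. Cd28 was chosen for its d35 difference, so nothing is read from that gap. At 13.5 d.p.c. all 14 lie between -0.12 and 0.00.

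Among the CD3 chains, which carry the signal of the receptor into the cell, Cd3d (1422828_at) measured 7.10, 8.87, 7.99, 7.20 and 7.44 in wild-type pools 1 to 5 at d35. The MSTN-null pools measured 7.34, 7.05, 7.85, 7.63 and 7.21. The top value is in wild-type pool 2 and the next in wild-type pool 3, while the other wild-type pools fall within the range of the MSTN-null pools, 7.05 to 7.85. Cd3g (1419178_at) measured 5.46, 7.52, 6.62, 5.40 and 5.58 in the wild-type pools. The MSTN-null pools measured 5.57, 5.37, 5.88, 5.96 and 5.45. Again wild-type pools 2 and 3 were high and the other wild-type pools lay among the MSTN-null pools. The differences were 0.31 ± 0.28 and 0.47 ± 0.34 (SE) for Cd3d and Cd3g. Cd3e (1422105_at) varied less, from 7.94 to 8.54 in wild-type and from 7.74 to 8.30 in MSTN-null muscle, with a difference of 0.09 ± 0.11 (SE).

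The coreceptor genes showed the same pool. Cd8b1 (1426170_a_at), the beta chain of CD8, measured 5.22, 6.42, 5.52, 5.79 and 5.40 in the wild-type pools. Its MSTN-null pools measured 5.51, 5.23, 5.75, 5.60 and 5.52. Wild-type pool 2 stood above all other pools, and the difference was 0.15 ± 0.18 (SE). Cd4 (1419696_at) measured 7.81, 8.40, 8.18, 7.95 and 7.98 in wild-type and 7.92, 7.84, 8.13, 8.06 and 7.79 in MSTN-null muscle, a difference of 0.11 ± 0.10 (SE). Its other probe set, 1427779_a_at, was below the lower quartile of the chip and ran from 5.28 to 5.65 over the 10 pools, with wild-type pool 3 lowest. The 5 probe sets of Cd8a, the alpha chain, differed by -0.21 to 0.19. The lowest of these, 1440811_x_at, ran from 5.26 to 5.54 in wild-type and from 5.44 to 5.79 in MSTN-null muscle. The suffix _x_at marks probe sets some of whose probes also match other sequences, and wild-type pool 2 was not the highest there.

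Cd5 (1418353_at), whose product restrains receptor signalling, measured 5.68, 7.02, 6.31, 5.88 and 5.90 in the wild-type pools. The MSTN-null pools measured 5.90, 5.83, 6.18, 5.86 and 5.77. Wild-type pools 2 and 3 were the highest of the 10, and the difference was 0.25 ± 0.20 (SE). With wild-type pool 2 left out, the 12 probe sets without Cd28 were higher in wild-type in 6 and had a median difference of 0.00, from -0.23 to 0.11. With wild-type pools 2 and 3 both left out, 2 of 12 were higher and the median was -0.05, so that the direction of the set as a whole rested on these pools. The Cd28 differences were -1.09 and -1.03 in the same comparison.

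**Figure D3:**
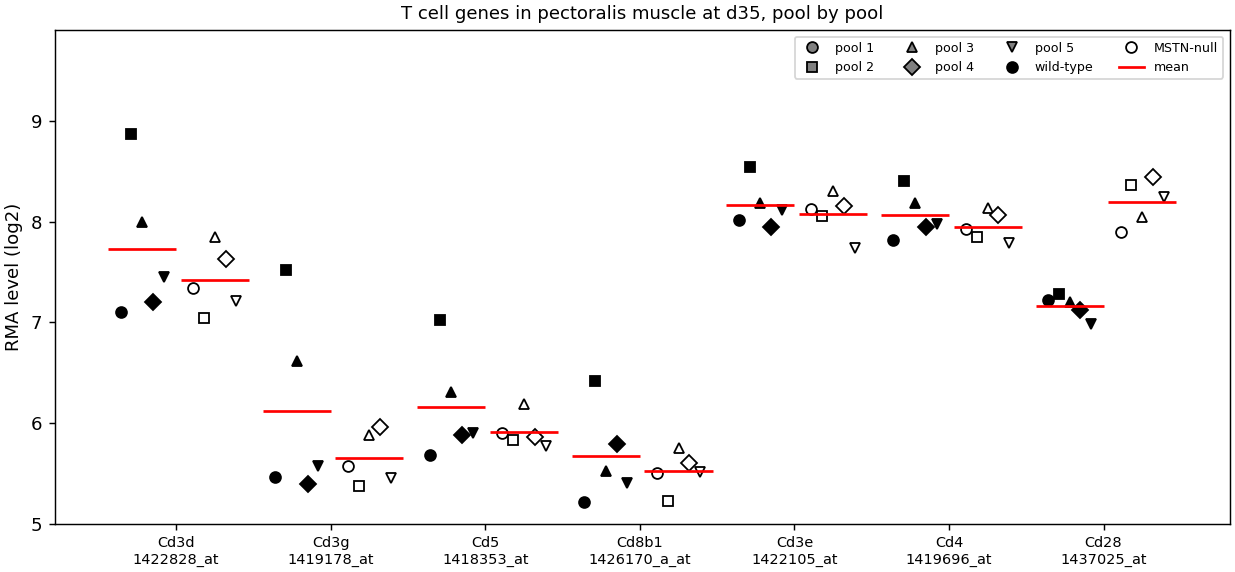
Levels at d35 (vertical axis, RMA level on a log2 scale) of 1 probe set for each of 7 T cell genes, with wild-type pools filled, MSTN-null pools open, shapes for the pool number and red lines for the means. Wild-type pool 2 (filled square) is the highest pool for every gene shown but Cd28, where all wild-type pools lie below all MSTN-null pools. Heights of different probe sets are not comparable with each other.

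Once the mean of each genotype was removed, many but not all probe sets of the other T cell genes varied with Cd3d over the 10 pools of d35. The correlation was 0.97 for Cd3g, 0.96 for Cd5, 0.96 for Cd4 (1419696_at), 0.91 for Cd8a (1444078_at), 0.85 for Cd3e and 0.83 for Cd8b1. On the remaining probe sets of Cd8a it was 0.89 (1451673_at), 0.72 (1425335_at), 0.52 (1440164_x_at) and 0.14 (1440811_x_at), and on the dim probe set of Cd4 it was -0.17. For Cd28 it was 0.15 (1437025_at) and 0.29 (1417597_at), while the 2 Cd28 probe sets correlated at 0.74 with each other. These are descriptions over 10 pools that share arrays, and wild-type pool 2 weighs heavily in the first of them.

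Cd3d and its closest correlate among these genes, Cd3g, lie side by side on chromosome 9 and are transcribed in opposite directions from starts 1355 bases apart. Cd3e lies on the same chromosome, Cd4, Cd8a and Cd8b1 on chromosome 6, and Cd5 on chromosome 19. The 250 bases before each start are printed to show the stretch between and beside this pair, 5′ to 3′ on the strand of the gene, from RefSeq (GRCm38.p6). Capitals mark matches to the motifs named after them. Cd3d is at chr9:44981536-44981785 on the plus strand and Cd3g at chr9:44980432-44980681 on the minus strand.
Cd3d: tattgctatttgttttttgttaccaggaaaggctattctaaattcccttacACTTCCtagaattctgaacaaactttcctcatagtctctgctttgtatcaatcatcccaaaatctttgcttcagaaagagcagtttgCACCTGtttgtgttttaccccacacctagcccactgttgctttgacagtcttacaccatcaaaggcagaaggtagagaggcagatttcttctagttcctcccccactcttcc
Cd3g: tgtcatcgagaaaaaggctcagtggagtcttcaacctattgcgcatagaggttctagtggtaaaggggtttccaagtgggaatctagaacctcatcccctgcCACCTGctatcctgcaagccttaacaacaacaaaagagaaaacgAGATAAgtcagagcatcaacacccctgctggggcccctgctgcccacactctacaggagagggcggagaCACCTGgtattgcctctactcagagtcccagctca

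Both strands were searched for 5 motifs. The E-box of E proteins was read as CAGGTG and the core of ETS factors as GGAAGT. A site of GATA factors was read as AGATAA, where GATA3 is a factor of the T lineage. The core of RUNX factors, which take part in the silencing of Cd4, was read as TGTGGT, and the box bound by general transcription factors as TATAAA. Cd3d holds 1 ETS core at position -199 and 1 E-box at -112 from its start, both on the opposite strand. Cd3g holds E-boxes at -148 and -35 on the opposite strand and a GATA site at -104. Among 5 measured genes with an entry (Cd3e, Cd3d, Cd3g, Cd8a and Cd5), 3 held the E-box, 3 the ETS core, 1 the GATA site and 0 the RUNX core or the TATA box. Of 32851 promoters of that length, 17.2%, 19.7%, 9.99%, 14% and 12.4% held the E-box, ETS core, GATA site, RUNX core and TATA box. A match is a description of letters and not a site in use.

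At 13.5 d.p.c. the T cell genes were close to equal between genotypes. Of the 12 probe sets without Cd28, 11 were lower in wild-type, by small amounts with a median of -0.06, beside 49.7% lower among all probe sets and a median of 0.00. None of the 14 probe sets passed the limma test (smallest q = 0.303), where 0.54% of all probe sets passed. At an unadjusted p under 0.05 there were 2. Cd5 had the largest of these differences, -0.12 ± 0.06 (SE, limma q = 0.326), with wild-type embryos from 6.28 to 6.39 and MSTN-null embryos from 6.25 to 6.62. The other was Cd8a on 1425335_at, at -0.09 ± 0.04 (SE, limma q = 0.303). In 0 of the 14 were the genotypes apart, beside 2.4% of all probe sets. At this age 8 of the 14 probe sets lay below the lower quartile of their chip.

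At 17.5 d.p.c. no T cell gene differed by the limma test, and 0 of all probe sets (0%) did. The 12 probe sets without Cd28 had a median difference of -0.02, with 7 of 12 lower in wild-type and 0 at an unadjusted p under 0.05. The genotypes overlapped in all 14, where 0.535% of all probe sets were apart. At this age too, 8 of the 14 lay below the lower quartile of their chip. The range of the differences, -0.09 to 0.17, was set at its upper end by the chip B array that stood apart: Cd8a on 1440811_x_at measured 7.37 in wild-type pool 1 and 6.24 to 6.57 in the other 9 pools. Without wild-type pool 1 that difference was -0.03 in place of 0.17, and that of Cd8a on 1440164_x_at was 0.01 in place of 0.11. Cd3g ran from 5.50 to 6.06 in MSTN-null hindquarters, with pool 4 highest. The change of the genotype difference between the embryonic and fetal samples was tested in the limma fit of all pools. It was not called for any of the 14 probe sets (smallest limma q = 0.879, smallest unadjusted limma p = 0.130). That fit takes its spread from the d35 pools too, where Cd3g had an SD of 0.93 in wild-type against 0.06 at 13.5 d.p.c. It could therefore miss small changes, and the ages are of different tissues, so nothing was concluded from it.

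Few probe sets of the wider T cell pathway were called. In 4 lists, of receptor signalling, the CD28 family and its ligands, CD28 signalling, and T cell transcription and homing, 71 of 81 genes were measured, on 149 probe sets. By the limma test 0 were called at 13.5 d.p.c., beside 0.54% of all probe sets, and 0 at 17.5 d.p.c., beside 0% of all. Nothing was read from these counts. At an unadjusted p under 0.05 there were 15 and 3 of the 149. At d35, 1 was higher and 2 were lower in wild-type, 2.01% of the probe sets, beside 4.58% of all. These were Vtcn1 (1458070_at), a ligand that restrains T cells, at -0.31 ± 0.07 (SE, limma q = 0.0166), Tbx21 (1449361_at), the T-bet factor of type 1 helper cells, at -0.23 ± 0.06 (SE, limma q = 0.0427) and Notch1 (1418634_at), a receptor needed to begin the T lineage but used by many cells, at 0.24 ± 0.06 (SE, limma q = 0.0410). Vtcn1 and Tbx21 were apart between genotypes and Notch1 overlapped. Another probe set of Notch1, 1418633_at, differed by 0.19 (limma q = 0.113). These calls were not stable: 1 of the list genes' probe sets was called by Benjamini-Hochberg, 0 without wild-type pool 3, and 1 when wild-type pool 1 or 4 or MSTN-null pool 1, 3 or 5 was left out.

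Of the 18 probe sets of the CD28 family and its ligands, Vtcn1 alone was called at d35, at -0.31 and so lower in wild-type. At d35 4.58% of all probe sets were called, so 1 call among 18 is near that share and nothing was read from its direction. Ctla4, the inhibitory receptor that competes for the ligands of CD28, differed by -0.05 ± 0.08 (SE, limma q = 0.516). Icos, an inducible co-stimulator, differed by 0.20, 0.11 and 0.09 on 3 probe sets (limma q from 0.315 to 0.501). Cd86 differed by 0.12 and 0.16 (limma q = 0.364 and 0.353), and the 4 probe sets of Cd80 by -0.08 to 0.09. These are the ligands that CD28 and CTLA4 share, and the genotypes overlapped on each of their probe sets. Icosl (0.29 and 0.01), Cd274 (0.13) and Pdcd1lg2 (-0.05), ligands of other receptors of the family, were not called by the limma test. Nor was Cd276 (-0.03), which the list holds with them. The inhibitory receptors Pdcd1 and Btla differed by 0.00 and 0.27 (limma q = 0.630 and 0.435). Btla also had the widest spread of these in wild-type muscle, with an SD of 0.82 against 0.18 in MSTN-null muscle.

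Markers of other cells moved with the T cell genes in wild-type pool 2 at d35. The mean deviation of a list from the average of the 10 pools was 0.56 in that pool for the 12 T cell probe sets without Cd28, and -0.19 to 0.14 in the other 9 pools. For B cell markers (10 of 12 genes measured) it was 0.84 there and -0.27 to 0.20 elsewhere. For macrophage markers (13 of 14 genes) it was 0.53 there and -0.31 to 0.11 elsewhere. Natural killer cell and mast cell and granulocyte markers reached 0.22 and 0.25. The mean level of the B cell list ran from 5.88 to 6.90 in wild-type and from 5.79 to 6.11 in MSTN-null muscle, and that of the macrophage list from 7.25 to 7.98 and from 7.14 to 7.45. By the limma test 0 probe sets of these 4 lists were called, where 4.58% of all probe sets were. Nothing was read from that count. At an unadjusted p under 0.05 there were 2, 4, 0 and 0 in B cells, macrophages, natural killer cells and mast cells and granulocytes.

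Some markers of fat, vessels and muscle also differed at d35, where 4.58% of all probe sets were called in either direction and 2.08% as lower in wild-type. A list of white adipocyte markers, chosen after the data were seen, had 7 of 10 probe sets called higher in wild-type at d35, among them Lpl (1431056_a_at, 0.78 ± 0.13, SE, limma q = 0.00405). Its mean level ran from 9.66 to 9.84 in wild-type and from 8.91 to 9.66 in MSTN-null muscle. Of 6 endothelial probe sets 3 were called higher in wild-type (median of the 6, 0.24), and of 10 skeletal muscle probe sets 2 were called lower (median of the 10, -0.13). Within MSTN-null muscle, the Cd28 deviation was lowest in pool 1 (0.04), where the adipocyte deviation was lowest too (-0.56). It was highest in pool 4 (1.19), where the adipocyte deviation was -0.46. In pools 2, 3 and 5 the Cd28 deviations were 0.55, 0.32 and 0.38 and the adipocyte deviations -0.18, -0.31 and 0.19. The part of these cell types in the Cd28 difference was not tested.

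**Figure D4:**
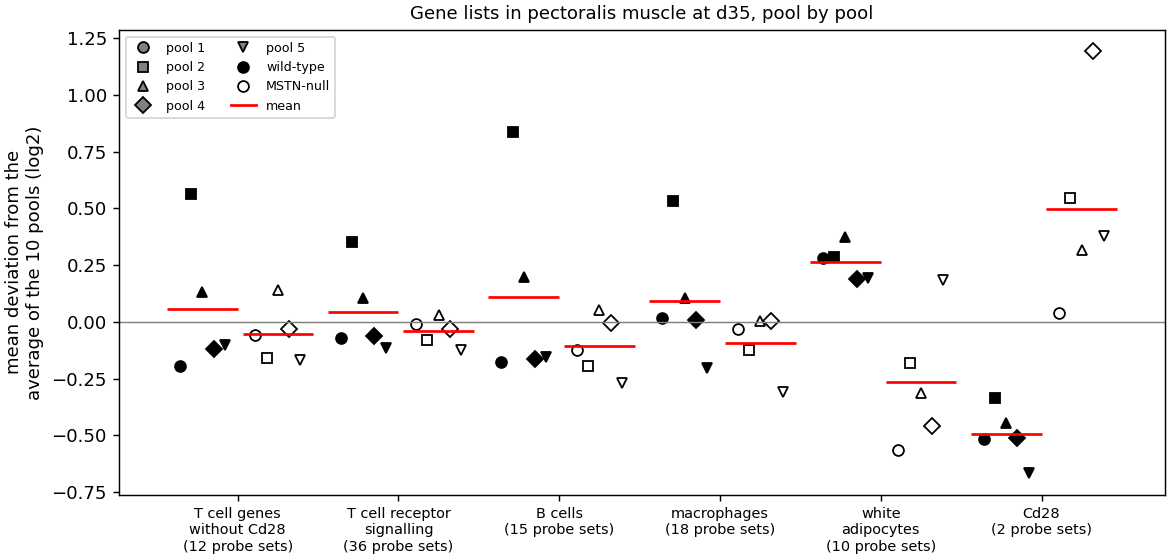
Mean deviation of each gene list from the average of the 10 pools at d35 (vertical axis, log2) in wild-type (filled) and MSTN-null (open) pools, with shapes for the pool number and red lines for the means. Wild-type pool 2 is highest for T cell genes without Cd28 (0.56), B cells (0.84) and macrophages (0.53), while Cd28 is below 0 in all wild-type pools and above 0 in all MSTN-null pools.

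Cd28 was also set against its surroundings on chromosome 1, which it shares with Mstn. Between Mstn and Cd28 lie 61 measured genes. Of 96 genes measured within 10 Mb of Mstn, on 206 probe sets, the limma test called 13 as higher in wild-type muscle at d35 and 4 as lower, 8.25% against 4.58% of all. Both Cd28 probe sets are among the 4, and without them 7.35% of 204 were called. The count of 17 fell to 7 by Benjamini-Hochberg, to 5 without wild-type pool 3, and to 7 to 9 without wild-type pool 1 or 2 or MSTN-null pool 1, 3 or 4. At 13.5 d.p.c. 3 were called, all lower (1.46% against 0.54%), but 0 without wild-type pool 1, 1 without MSTN-null pool 1, 3 or 5 and 6 without wild-type pool 5. At 17.5 d.p.c. the count was 0, with 4 at an unadjusted p under 0.05.

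Among 22 other genes within 2 Mb of Cd28, on 48 probe sets, differences at d35 went both ways. All were smaller than those of Cd28, which was chosen for its d35 difference, so nothing was read from that contrast. In wild-type muscle 31 of the 48 were higher and 17 lower, with a median difference of 0.05 and a range from -0.28 to 0.31. The limma test called 4 as higher and 0 as lower, where it called 4.58% of all probe sets. The called ones included 2 probe sets of Nrp2, a semaphorin and VEGF receptor (0.27 and 0.31, limma q = 0.0321 and 0.0462). The others were Nbeal1 (0.31, limma q = 0.0421) and Fam117b (0.26, limma q = 0.0428). The called Nbeal1 probe set had low means, 4.48 in wild-type and 4.17 in MSTN-null muscle. Further probe sets of these genes were not called. They differed by 0.28 and 0.15 (Nrp2), 0.12, 0.16 and 0.20 (Nbeal1) and -0.01 and -0.05 (Fam117b). The next gene on the side of Mstn, Raph1, differed by 0.18, 0.02 and -0.02 (smallest limma q = 0.0828), and on the other side stand Ctla4 and then Icos. Before birth 0 of the 48 were called by the limma test, with 11 at an unadjusted p under 0.05 in embryos and 1 in hindquarters. Of all probe sets 0.54% were called in embryos and 0% in hindquarters, so that 0 was the only count possible in hindquarters.

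**Figure D5:**
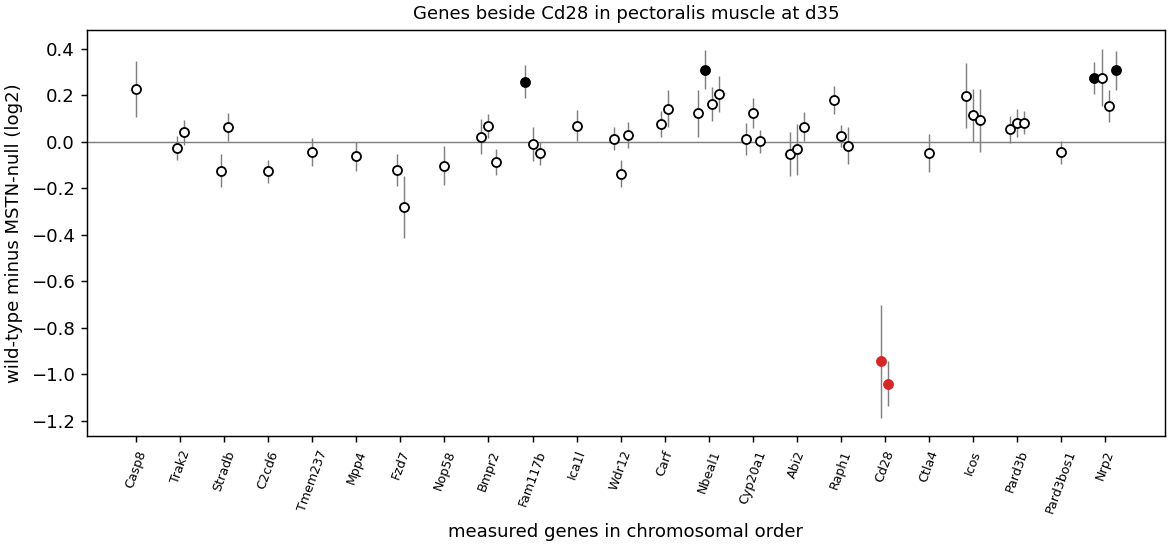
Wild-type minus MSTN-null difference at d35 (vertical axis, log2) of the probe sets of Cd28 (red) and of 22 measured genes within 2 Mb of it in chromosomal order (horizontal axis), with bars of 1 standard error on each side. Filled black symbols passed the limma test at q under 0.05, and Cd28 carries no test. The Cd28 probe sets lie at -1.04 and -0.94 and all others from -0.28 to 0.31. Cd28 was chosen for its d35 difference, so nothing is read from the gap.

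The probe sets most like Cd28 on 1437025_at were not T cell genes. Over all 30 pools, with the mean of each group removed, the highest correlations were with Acad8 (0.77), a mitochondrial enzyme of valine breakdown, Peg3 (0.75), an imprinted zinc finger gene, Cnn3 (0.72), a calponin, Cdyl2 (0.72) and the RNA helicase gene Ddx39a (0.72). The other Cd28 probe set ranked 14 with 0.63. The best of the other T cell genes was Cd3g at rank 3596 with 0.29. Another measure took the 10 pools of d35 and kept the genotype difference in. By it, Peg3 (0.98 and 0.97 on 2 probe sets), Zfp385a (0.97), Ddb1 (0.97) and Mlec (0.97) ranked highest. The other Cd28 probe set then ranked 351 with 0.85, and the other T cell genes ran from -0.35 to 0.62. Peg3 on 1417355_at, at 8.41 ± 0.11 in wild-type and 8.97 ± 0.17 in MSTN-null muscle (SD, n = 5), was taken up for this likeness, so that its direction at d35 was set by the choice.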

How the data were processed

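Each RNA pool was run on the chips MOE430A and MOE430B. Normalization by the authors was by RMA, from the package affy, whose version is not given in the sources used here. The deposited values are log2 intensities, from 2.78 to 15.3. RMA equalizes arrays, so that a difference is relative to the other probe sets, and time points and chips were scaled apart. The 64 control probe sets of a chip were dropped, and for 100 probe sets shared by the chips the MOE430A value was used. Of the 45037 probe sets left, 34945 carry 1 gene symbol, 932 several and 9160 none. No table column went unassigned.

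Genotypes were compared at each time point by the lmFit and eBayes functions of limma 3.58.1 (R 4.3.3), and probe sets were called at a Storey q under 0.05 (lambda from 0.05 to 0.95 in steps of 0.05), a procedure tested on simulated data. The difference between the embryonic time points was an interaction in 1 fit of 30 pools. Dim means a mean over all pools of a time point, of both genotypes, below the percentile 25 of a chip. Every probe set of the T cell genes and of the CD28 family is covered, with called genes of the other lists (up to 4 per list and time point), genes within 2 Mb of Cd28 and the 5 closest correlates. The genes and lists were chosen with earlier results of these data known. Positions on chromosome 1 served only to order genes, since the files name no build. Figures were drawn with matplotlib 3.10.9 in Python 3.11.15. Intensities are not counts, and the number of pools limits precision. Alternatives covered the adjustment, each chip alone, dim probe sets, further normalization, variance moderation, replicate blocks, 1 probe set per gene, a single fit and pools left out.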

Additional observations from a re-analysis of the deposited data

Results flagged for a closer look

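In 84 groups of 5 pools (14 probe sets, 2 genotypes, 3 time points), 2 held a pool far from the rest by Dixon's criterion, and chance gives about 1 in 20 groups. Cd3d (1422828_at) measured 7.53 in wild-type pool 2 at 13.5 d.p.c., where the other wild-type pools ran from 7.42 to 7.44. Cd28 (1417597_at) measured 5.58 in wild-type pool 1 at 17.5 d.p.c., where the others ran from 5.76 to 5.77. Wild-type pool 2 at d35, far above the rest for Cd3d and Cd3g together with wild-type pool 3, was not among the 2.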

How the results depend on the processing

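None of the T cell probe sets passed the threshold in embryos or hindquarters under any alternative tried. The Cd28 difference at d35 kept its direction in all of them and ran from -1.11 to -0.98 on 1437025_at and from -1.10 to -0.65 on 1417597_at. This difference chose the gene, so its persistence is a description and no support. The same holds for the number of T cell probe sets under the q threshold at d35, both of Cd28, which was 2, and 1 by Benjamini-Hochberg, with trended and robust variances, with the brightest probe set per gene, and without wild-type pools 2 and 3 (a setting added after the data were seen). Leaving out 1 pool gave 1 to 2. Without wild-type pool 1, 3, 4 or 5 or MSTN-null pool 2 or 3, probe set 1417597_at was not called. For the other T cell pathway genes at d35 (3 called), Benjamini-Hochberg gave 1, the replicate block 5, the single fit 6, omission of wild-type pools 2 and 3 gave 0, and leaving out 1 pool 0 to 4, with 0 to 1 at 13.5 d.p.c. (0 called).

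For genes within 10 Mb of Mstn at 13.5 d.p.c. (3 called), each chip alone, removal of dim probe sets, trended variances and the replicate block gave 5, the brightest probe set 1, the single fit 0, and leaving out 1 pool 0 to 6 (0 without wild-type pool 1). At d35 (17 called), Benjamini-Hochberg gave 7, omission of wild-type pools 2 and 3 gave 4, and leaving out 1 pool 5 to 16, the lowest without wild-type pool 3. The cause was not tested. The labels do not say whether replicate numbers pair the samples. Same-numbered pools of the 2 genotypes correlated from -0.10 to 0.08 in embryos, from -0.20 to 0.48 in hindquarters and from -0.17 to 0.14 in muscle. Pools of different numbers reached 0.17, 0.49 and 0.16. In embryos, hindquarters and muscle 1, 3 and 1 of 5 correlated best with their own number, so pairing in the hindquarters is not settled. Signals below the lower quartile of a chip limit what could be seen of Cd28, Cd3g, Cd8b1 and Cd5 before birth.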
